A study of Mus musculus with 14 samples.

Results

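Regions bound by Ring1b with or without K27M H3.3, and free of H3K27me3 peaks, were described in mouse PDGF neural stem cells. They were defined from the deposited ChIP-seq peak lists as autosomal Ring1b peaks of H3WT cells that overlapped a Ring1b peak of K27M cells by at least 1 bp and overlapped no peak of any of the 4 DMSO H3K27me3 libraries. The rule found 385 of the 1727 autosomal Ring1b peaks of H3WT cells (1754 peaks with X). Of 1346 shared autosomal Ring1b peaks, the remaining 961 touched H3K27me3. Peak positions of Ring1b and H3K27me3 chose the regions, so their number, their sharing and their freedom from H3K27me3 are descriptions and were not tested.

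The cells were K27M cells, which express H3.3 with methionine in place of lysine 27, and H3WT cells, which express wild-type H3.3. The series calls them mouse DIPG cells, after a childhood brainstem glioma, and they were grown in neural stem cell medium with epidermal and basic fibroblast growth factors. Both genotypes received 3 µM EPZ6438 (EPZ), an Ezh2 inhibitor, or DMSO, the solvent, for 12 days. H3K27me3 had 2 libraries in each of the groups K27M EPZ, H3WT EPZ, K27M DMSO and H3WT DMSO, while Ring1b and Suz12 had 1 library per genotype, all in DMSO. The labels do not say how H3.3 or PDGF was introduced, how many clones were used, or whether replicates were separate cultures. The peak lists carry no RNA level, so the labelled cell type could not be checked against its markers.

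Ring1b (gene Rnf2) is the catalytic ubiquitin ligase of Polycomb repressive complex PRC1, which ubiquitinates histone H2A. Canonical PRC1 contains Cbx proteins that bind H3K27me3, the mark made by PRC2 through Ezh2 with its partners Suz12 and Eed. Variant PRC1 complexes contain Rybp or Yaf2 in place of Cbx proteins and reach chromatin without H3K27me3, for instance through Kdm2b, which binds unmethylated CpG, or, in mouse embryonic stem cells, through E2f6 and Mga with Max at germ cell genes. In neural progenitors, PRC1 and PRC2 together are known for silencing developmental regulators.

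The promoters at these regions were rich in CpG, and the sequences shown are those of genes for the Polycomb complexes and for meiosis, followed by the extremes of the range. Each is the 300 bases from 250 before the transcription start to 50 from it onward, from RefSeq (GRCm38.p6, the assembly behind mm10). Capitals mark CpG dinucleotides, and the start is base 251. Pcgf5 (chr19:36409498-36409797, plus strand) and E2f6 (chr12:16810715-16811014, plus strand) encode subunits of variant PRC1, Ezh2 (chr6:47594981-47595280, minus strand) the methyltransferase of PRC2, and Stag3 (chr5:138280259-138280558, plus strand) a cohesin subunit of meiosis.
Pcgf5: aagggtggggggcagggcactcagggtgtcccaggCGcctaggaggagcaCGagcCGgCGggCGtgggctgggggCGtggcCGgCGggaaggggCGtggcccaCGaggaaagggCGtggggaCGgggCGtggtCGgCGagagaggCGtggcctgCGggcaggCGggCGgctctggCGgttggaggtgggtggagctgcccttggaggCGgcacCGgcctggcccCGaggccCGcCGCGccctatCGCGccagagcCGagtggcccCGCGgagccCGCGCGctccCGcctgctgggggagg
E2f6: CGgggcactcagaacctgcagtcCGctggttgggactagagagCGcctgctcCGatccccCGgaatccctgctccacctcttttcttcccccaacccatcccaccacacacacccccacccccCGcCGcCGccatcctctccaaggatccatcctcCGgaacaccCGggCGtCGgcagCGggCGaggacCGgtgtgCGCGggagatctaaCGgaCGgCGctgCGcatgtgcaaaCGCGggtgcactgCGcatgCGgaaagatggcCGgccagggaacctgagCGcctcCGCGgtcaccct
Ezh2: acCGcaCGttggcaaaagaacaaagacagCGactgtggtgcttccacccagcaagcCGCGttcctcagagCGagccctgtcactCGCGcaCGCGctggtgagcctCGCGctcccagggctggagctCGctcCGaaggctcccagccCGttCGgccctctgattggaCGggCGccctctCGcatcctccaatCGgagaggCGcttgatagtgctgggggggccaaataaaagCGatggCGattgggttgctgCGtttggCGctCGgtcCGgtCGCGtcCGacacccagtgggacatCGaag
Stag3: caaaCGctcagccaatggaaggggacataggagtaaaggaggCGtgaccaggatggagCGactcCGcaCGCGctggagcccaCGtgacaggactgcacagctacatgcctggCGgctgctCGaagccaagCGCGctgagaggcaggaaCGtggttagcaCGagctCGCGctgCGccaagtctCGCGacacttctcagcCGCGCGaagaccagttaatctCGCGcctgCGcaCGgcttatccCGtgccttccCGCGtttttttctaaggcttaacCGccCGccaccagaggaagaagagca

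Stag3 held an E-box, CACGTG, that began at base -170 from the start, and Pcgf5 held the E2F-type motif GGCGGGA on either strand at bases -168 and 32 (the start is 1, and the base before it -1). The promoters of E2f6 and Ezh2, and those of Mga, Smc1b, Tdrkh and Zcwpw1, which are not shown, held neither motif. Pcgf5 had 35 CpG, Ezh2 31, Stag3 30 and E2f6 29. The promoter with the most CpG, 61, belonged to Med13l (chr5:118560469-118560768, plus strand), which encodes a subunit of the Mediator kinase module. The fewest, 5, were in the promoters of Amer2, Fbxl16, Pisd and Ubash3b, of which Amer2 is shown (chr14:60377442-60377741, plus strand). Amer2 encodes a membrane-associated regulator of Wnt signalling.
Med13l: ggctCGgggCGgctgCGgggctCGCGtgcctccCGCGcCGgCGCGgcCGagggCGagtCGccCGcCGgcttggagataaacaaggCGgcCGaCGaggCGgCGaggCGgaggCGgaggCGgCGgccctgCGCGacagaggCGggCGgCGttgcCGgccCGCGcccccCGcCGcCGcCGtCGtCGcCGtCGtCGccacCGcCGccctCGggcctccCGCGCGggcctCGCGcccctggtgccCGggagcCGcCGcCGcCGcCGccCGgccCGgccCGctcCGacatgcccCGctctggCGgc
Amer2: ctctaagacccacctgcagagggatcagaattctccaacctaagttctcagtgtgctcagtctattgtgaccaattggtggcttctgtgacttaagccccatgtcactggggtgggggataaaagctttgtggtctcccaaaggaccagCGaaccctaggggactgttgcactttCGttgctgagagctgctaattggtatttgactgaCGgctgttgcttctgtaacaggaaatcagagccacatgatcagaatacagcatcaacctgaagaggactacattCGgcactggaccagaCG

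Among 288 protein-coding genes at these regions with a start in the RefSeq promoter table, the median promoter had 29 CpG in 300 bases (quartiles 22 and 38.2). The median was 24 among 341 genes at shared Ring1b peaks with H3K27me3 and 14 among all 16456 autosomal protein-coding genes in the table. CpG observed over expected, the number of CpG divided by that implied by the C and G content, had medians of 0.884 at the regions without H3K27me3, 0.787 at those with it and 0.595 over all genes. A CpG-rich promoter, with a ratio of at least 0.6 and at least 50% G and C, was found at 88.9% of genes of the regions without H3K27me3 (256 of 288), at 72.1% with H3K27me3 (246 of 341) and at 47.2% of all genes (7769 of 16456). For a gene at a peak, the start nearest the peak centre was used, and for all genes the first start listed. With the first start listed for the 288 genes too, 84.7% were CpG-rich and the median ratio was 0.871.

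**Figure D1:**
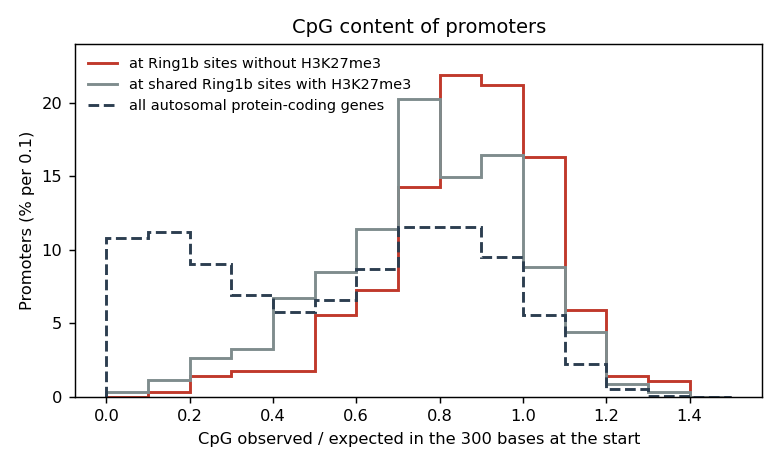
CpG observed over expected in the 300 bases at gene starts (x axis, no unit) against the percentage of promoters in each bin of 0.1 (y axis), for 288 genes at shared Ring1b regions without H3K27me3, 341 genes at shared Ring1b regions with H3K27me3 and 16456 autosomal protein-coding genes. The genes at regions without H3K27me3 lay farthest to the right, with a median of 0.884, and lacked the low peak of the curve of all genes.

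Short motifs were searched on both strands of the same 300 bases. Because most contain CpG, they were compared among CpG-rich promoters, 256 without H3K27me3, 246 with H3K27me3 and 7769 of all genes. CpG content still differed among these sets, with medians of 31, 28 and 25 CpG in that order, and its part in the motif shares was not tested. The E-box CACGTG, the core motif of Myc and Max family factors, was in 18% of promoters at regions without H3K27me3 (exact 95% interval 13.5% to 23.2%), in 12.2% with H3K27me3 (8.38% to 16.9%) and in 11.7% of all genes. The E2F-type motif GGCGGGA was in 28.5%, 28% and 26.6% of these promoters in the same order, and the GC box GGGCGG, whose letters can overlap it, in 80.1%, 79.3% and 76.8%. The ETS-type motif CCGGAAG was in 16.4% of promoters without H3K27me3 (12.1% to 21.5%), in 4.07% with H3K27me3 (1.97% to 7.35%) and in 20.3% of all genes. Of these motifs, the E-box had an interval at regions without H3K27me3 that lay above the share of all CpG-rich promoters but overlapped that of regions with H3K27me3, while the ETS-type interval at regions with H3K27me3 lay below both other values. The start used differed, nearest the peak centre at regions and first listed for all genes. Over all 288 genes the E-box share was 16.3% with the nearest start and 14.9% with the first listed. Among CpG-rich promoters this was not repeated.
The NRF1-type motif GCATGCGC was in 7.81%, 3.66% and 6.51% of CpG-rich promoters without H3K27me3, with it and of all genes. CCAAT was in 32.4%, 39% and 37.2%, TATAAA in 4.3%, 7.72% and 4.84%, and the cAMP response element TGACGTCA in 2.34%, 3.66% and 3.96%, in the same order. All intervals are exact (Clopper-Pearson), at 95%, for counting error alone, and were not adjusted for the number of motifs. Motif matches do not show binding.

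The Ring1b peaks of these regions were narrow. In K27M cells their width had a median of 1584 bp (quartiles 1274 and 1891, range 1001 to 3645), and in H3WT cells 1493 bp (quartiles 1188 and 1817, range 1001 to 3128). No deposited peak was narrower than 1001 bp, and 6 of the 385 H3WT peaks had that width. In H3WT cells 45 of them reached 2 kb and 2 reached 3 kb. Shared peaks with H3K27me3, counted per H3WT peak, had a median of 6805 bp in K27M cells (quartiles 2490 and 16310). In H3WT cells their median was 2409 bp (quartiles 1549 and 4601, range 1001 to 69200). A K27M peak that spanned several H3WT peaks entered the K27M median once for each, at its full width. The 961 H3WT peaks corresponded to 723 distinct K27M peaks, and no median width per distinct K27M peak was computed. A wider peak has more room to touch another, so the width difference between regions with and without H3K27me3 is tied to the rule.

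The extent of these peaks differed little between the genotypes. The K27M width divided by the H3WT width had a median of 1.03 (quartiles 0.960 and 1.17, range 0.529 to 3.09), and each of the 385 H3WT peaks lay against its own single K27M peak. The centres were a median of 43 bp apart (quartiles 18 and 99.5, at most 669.5), and the K27M peak covered a median of 99.8% of the H3WT peak and at least 52.9%. With 1 Ring1b library per genotype and unknown read depth, the ratio has no replicate check and compares these libraries. Of the 385 peaks, 240 (62.3%) were wider in K27M cells and 144 (37.4%) narrower, against 79.6% wider among all 1346 shared autosomal Ring1b peaks and 86.6% (832 of 961) of those with H3K27me3. A ratio of at least 1.5 was seen at 20 peaks (5.19%) without H3K27me3 and at 547 (56.9%) with it. These shares were counted per H3WT peak and were not recounted per K27M peak.
The 961 H3WT peaks with H3K27me3 corresponded to 723 distinct K27M peaks, of which 153 spanned 2 or more H3WT peaks. Counted per K27M peak, with the H3WT widths under it summed, the median ratio was 1.03 for regions without H3K27me3 and 1.27 for regions with it, against 1.70 for regions with it when counted per H3WT peak.

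**Figure D2:**
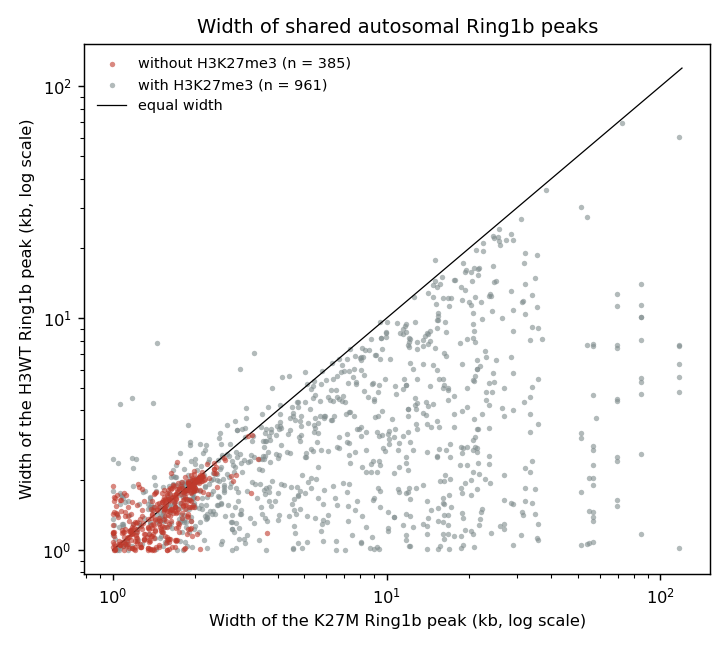
Width of each shared autosomal Ring1b peak in K27M cells (x axis, kb, log scale) against its width in H3WT cells (y axis, kb, log scale), with 385 peaks without H3K27me3 in red and 961 with H3K27me3 in grey. Red points lay close to the line of equal width below 4 kb, while many grey points lay far to its right. A K27M peak that spanned several H3WT peaks gave a grey point for each.

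The ratios, counted per H3WT peak, were compared at like H3WT widths. A K27M peak that spanned several H3WT peaks entered once for each, and no recount per K27M peak was made by width. For H3WT widths up to 1.5 kb, the median ratio was 1.11 without H3K27me3 (195 peaks) and 2.51 with it (223 peaks). Over 1.5 and up to 2 kb it was 0.999 without H3K27me3 (145 peaks) and 1.40 with it (190 peaks), and over 2 and up to 3.2 kb 1.01 without (45 peaks) and 1.63 with it (183 peaks). At each width the ratio of the regions without H3K27me3 stayed near 1. In the narrowest class a peak at the minimum width could only be as wide or wider in the other library.

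The widest regions at a protein-coding gene lay at Inppl1, an inositol phosphatase gene, and Ier2, an immediate-early gene. The Inppl1 peak (chr7:101836256-101839383 in H3WT cells) was 3234 bp wide in K27M cells and 3128 bp in H3WT cells. The Ier2 peak (chr8:84661895-84665005) was 3126 bp in K27M cells and 3111 bp in H3WT cells. Both peaks were nearly the same in the 2 genotypes. Next came Fzd2, a Wnt receptor, with 2550 bp in K27M cells and 2498 bp in H3WT cells, and Tle3, a Groucho-family corepressor, with 3381 bp in K27M cells and 2465 bp in H3WT cells. The uncharacterised gene 2700081O15Rik had 2567 bp in K27M cells and 2449 bp in H3WT cells. Ptma, which encodes prothymosin alpha, had 1719 bp in K27M cells and 2402 bp in H3WT cells. Tasor, of the HUSH silencing complex, Arntl, a circadian clock activator, and Egr1, an immediate-early zinc finger factor, were among the 12 widest too, with K27M widths of 2352, 2217 and 2387 bp against H3WT widths of 2366, 2349 and 2279 bp. The other 3 were Zfp280d, Hyal2 and Klhl22. Of these 12, Tle3 and Ptma moved most between the libraries, one wider and the other narrower in K27M cells.

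The largest ratio was at Satb1, which encodes a chromatin organiser. Its peak (chr17:51813013-51814192) was 3645 bp wide in K27M cells and 1180 bp in H3WT cells, a ratio of 3.09, and an H3K27me3 peak lay 39 bp away. It was also the single region with a Suz12 peak, which covered 1076 bp of it in K27M cells. The promoter shared by Eef1akmt3 and Mettl1, which encode a lysine methyltransferase of elongation factor eEF1A and a tRNA methyltransferase, had 2080 bp in K27M cells and 1010 bp in H3WT cells. Zfp36l2, which encodes an mRNA decay factor, had 3198 bp in K27M cells and 1755 bp in H3WT cells, and its nearest H3K27me3 peak was 243673 bp away. The lowest ratios were 0.529 at Abca1, a cholesterol exporter, with 1001 bp in K27M cells and 1893 bp in H3WT cells, and 0.599 at a peak inside a gene (chr11:69315432-69317155), and the next lowest was at Scamp1, a vesicle membrane protein gene, with 1011 bp in K27M cells and 1686 bp in H3WT cells. Since 1001 bp is the narrowest width listed, these K27M peaks were at or near the limit of the list.

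PRC2 was almost never called at the regions. Suz12, which the rule did not use, had a peak over 1 of 385 regions in K27M cells (0.26%, 0.00658% to 1.44%) and over 0 of 385 in H3WT cells, which allows a share of up to 0.779% by the limit of 3 counts (exact upper bound 0.954%). Over all 1727 autosomal Ring1b peaks of H3WT cells, Suz12 peaks lay on 32.9% in K27M cells and on 22.8% in H3WT cells, and over shared peaks with H3K27me3 on 57.8% in K27M cells (555 of 961) and on 38.5% in H3WT cells (370 of 961). Suz12 is part of the complex that makes H3K27me3, so choosing regions free of the mark bears on this share. Within 5 kb, a Suz12 peak was found at 4 regions in K27M cells, namely Satb1, Tle3 at 1091 bp, Lhx2 at 2530 bp and 1 region with no gene name, and at 1 region in H3WT cells, Commd3 at 4492 bp. At H3WT widths up to 1.5 kb, a Suz12 peak of either genotype lay on 0.513% of regions without H3K27me3 and on 47.1% with it. Over 1.5 and up to 2 kb the shares were 0% and 50%. The share in K27M cells was 0.482% of 415 regions without the H3K27me3 list of H3WT replicate 2 and 1.13% of 443 without replicate 2 of both genotypes, where that in H3WT cells was 0% and 0.226%. With 1 Suz12 library per genotype these shares have no replicate check.

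The EPZ libraries of H3K27me3, also outside the rule, had no peak over the 385 regions in any of the 4 libraries, nor within 5 kb, which again allows up to 0.779% for overlap by 3 counts (exact upper bound 0.954%). An EPZ peak of any library lay on 18.5% of all autosomal Ring1b peaks of H3WT cells and on 32.9% of shared peaks with H3K27me3 (316 of 961). The EPZ lists were short, at 201 and 340 peaks in K27M cells and 278 and 271 peaks in H3WT cells. They hold the same mark that the rule excluded in DMSO, so choosing regions free of it bears on this absence.

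The 4 DMSO lists differed widely in length. The K27M libraries held 2351 and 17980 peaks, and the H3WT libraries 13358 and 59899, and without replicate 2 of H3WT 415 regions would have been free of H3K27me3, against 385 to 387 without any other single list. The nearest H3K27me3 peak of any DMSO list lay a median of 37.99 kb away (quartiles 8.77 and 83.7, range 0.014 to 1049 kb), and a median of 93.12 kb without replicate 2 of H3WT. With all 4 lists it lay within 50 kb at 230 regions, within 5 kb at 65 and within 1 kb at 26. Per library, the median distance from the regions was 420.3 and 102.4 kb in K27M replicates 1 and 2, and 132.7 and 38.85 kb in H3WT replicates 1 and 2. From all gene starts of the promoter table the same medians were 501.3, 114.6, 114 and 30.94 kb. The rule keeps a region's distance above 0 while a gene start can lie inside a peak, so these medians are descriptions of unlike sets.

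Regions just inside the rule lay at Kit, a receptor tyrosine kinase gene, 14 bp from H3K27me3, at Mpp6, a membrane scaffold gene, 30 bp away, and at Elfn1, a synaptic adhesion gene, 33 bp away. Just outside it, Zfpm1 overlapped H3K27me3 by 18 bp, Prune2 by 53 bp and Sema5b by 194 bp. The least overlap with a K27M Ring1b peak was 843 bp, at the Brd2 and H2-DMa starts, and the nearest peak that missed one lay 134 bp away, at the start of the noncoding gene 9930014A18Rik. At 4 regions, at Satb1, Elfn1, Kit and the noncoding gene Gm30298, the K27M Ring1b peak itself touched H3K27me3.

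**Figure D3:**
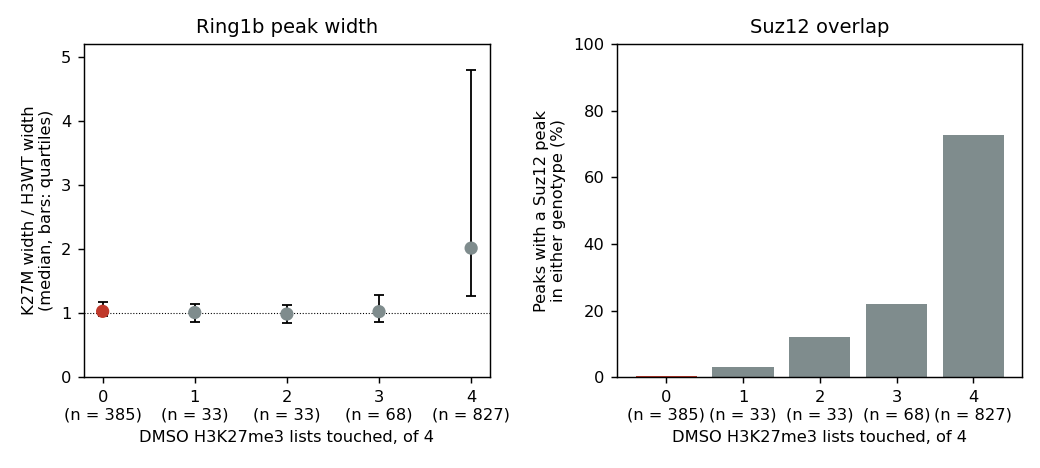
Shared autosomal Ring1b peaks by the number of DMSO H3K27me3 lists they touched, from 0 (red, the 385 regions) to 4 (x axis, with the number of peaks). Left, K27M width over H3WT width, counted per H3WT peak (median, bars from lower to upper quartile). Right, percentage of peaks with a Suz12 peak in either genotype. Peaks that touched 0 to 3 lists had median ratios near 1, and those that touched all 4 a median of 2.02.

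Peaks that touched some but not all H3K27me3 lists were close to the regions in width ratio. The median ratio was 1.03 at the 385 regions that touched none, 1.01, 0.987 and 1.02 at the 33, 33 and 68 peaks that touched 1, 2 and 3 lists, and 2.02 at the 827 peaks that touched all 4. Suz12 of either genotype lay on 0.26% of the peaks that touched none, then on 3.03%, 12.1% and 22.1% of those that touched 1, 2 and 3 lists, and on 72.7% of those that touched all 4. Counted per H3WT peak, width ratios therefore parted the peaks with all 4 lists from every other class, while the Suz12 share increased at each step. A K27M peak that spanned several H3WT peaks entered these ratios once for each, and the classes were not recounted per K27M peak. Protein-coding starts went the other way, with 84.2%, 75.8%, 75.8%, 50% and 48.4% of peaks at one from 0 to 4 lists.

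Most regions sat on promoters. A protein-coding start lay within 1 kb of 324 of 385 regions (84.2%, 80.1% to 87.7%), against 59.2% of all autosomal Ring1b peaks of H3WT cells and 50.4% (484 of 961) of shared peaks with H3K27me3. The share was 82.6% (128 of 155) among H3WT Ring1b peaks that had neither H3K27me3 nor a K27M Ring1b peak. A further 18 (4.68%) were within 1 kb of the start or end of another annotated gene, 27 (7.01%) inside a protein-coding gene, 3 (0.779%) inside another gene and 13 (3.38%) outside genes. Among shared peaks with H3K27me3 these shares were 9.47%, 19.8%, 5.93% and 14.5%. The difference in promoter share was seen at each width. It was 85.1% without H3K27me3 and 36.8% with it up to 1.5 kb, 81.4% and 55.8% over 1.5 and up to 2 kb, and 88.9% and 54% above that. For genes absent from the promoter table, which gives strands, either gene end counted as a start.

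Where the start and strand were known, most peak centres lay close to the start, more often downstream of it than upstream. At 273 regions with a table start within 1 kb (70.9% of 385), the centre lay a median of 82 bp downstream of the start (quartiles -86.5 and 296), and within 500 bp of it at 84.6%. For 331 shared peaks with H3K27me3 at a table start (34.4% of 961), the median was 211 bp (quartiles -338.8 and 912), with 44.1% within 500 bp. The centre lay downstream of the start at 62.6% of the 273 regions and at 62.2% of the 331 peaks with H3K27me3. A table start was inside 248 of these 273 regions and inside 294 of these 331 shared peaks with H3K27me3. That was 64.4% of all 385 regions and 30.6% of all 961 shared peaks with H3K27me3. Pairs of diverging protein-coding starts lay inside 14 of all 385 regions (3.64%) and inside 3 of all 961 shared peaks with H3K27me3 (0.312%).

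**Figure D4:**
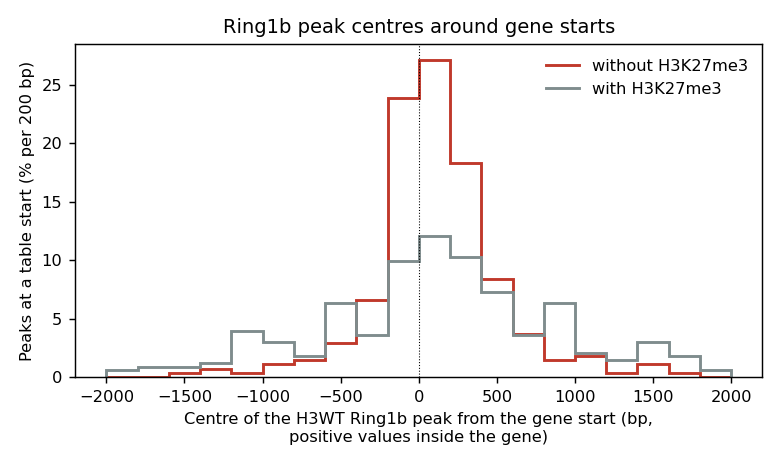
Distance from the gene start to the centre of the H3WT Ring1b peak (x axis, bp, positive inside the gene) against the percentage of peaks per 200 bp (y axis), for 273 regions without H3K27me3 and 331 shared peaks with H3K27me3 that have a table start within 1 kb. The curve of the regions without H3K27me3 was highest next to the start, and that of the regions with H3K27me3 was lower and broader.

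Noncoding genes and sites away from genes made up the rest. One region (chr7:79504419-79505922) lay at the start of Mir9-3, a microRNA gene active in neural progenitors, with the nearest protein-coding gene 36507 bp away, and others lay at Mir6991 and at the tRNA gene n-TWcca5. The most remote region (chr3:35224160-35226058) was 528 kb from any protein-coding gene, 1936 bp wide in K27M cells and 1899 bp in H3WT cells. Over all autosomes there were 385 regions and 20661 protein-coding genes. The fewest regions per 1000 protein-coding genes were on chromosome 1, with 7.48 (9 regions), and the most on chromosome 12, with 29.5 (20 regions). Chromosome 7 was nearly as low as chromosome 1, with 8.87 (18 regions). The other chromosomes ran from 14.5 on chromosome 13 to 27 on chromosome 19. Differences among chromosomes were not tested.

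The starts of 346 protein-coding genes lay within 1 kb of a region, or 1.67% of the 20661 autosomal ones. Of the 385 regions, 301 had 1 gene and 23 had 2, and Tafa5, which encodes a secreted brain protein, had 2 regions. Hes1, Lhx2, Pcgf5, Satb1 and Anks1b also had a separate shared Ring1b peak with H3K27me3. Gene lists by function covered 86 of the 346 genes, and 260 were in no list. Shares of each list are read against 1.67%, a share of all genes that was not matched for CpG-rich promoters. Shared peaks with H3K27me3 were at more genes, 486 of the 20661, which bears on list shares given for them.

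Genes of the Polycomb complexes were among those at the regions. Of 32 genes in the list of PRC1 subunits, 3 (9.38%, 1.98% to 25%) lay at a region, namely E2f6, Mga and Pcgf5, all of variant PRC1. E2f6 (chr12:16809938-16812073) had a peak of 1986 bp in K27M cells and 2136 bp in H3WT cells. Mga (chr2:119896380-119898413) had 1989 bp in K27M cells and 2034 bp in H3WT cells, and Pcgf5 (chr19:36409423-36410795) 1384 bp in K27M cells and 1373 bp in H3WT cells. Each peak was nearly equal in width in both genotypes. A shared peak with H3K27me3 was found at 6 of the 32, Pcgf5 among them. Of 11 PRC2 genes, Ezh2 alone lay at a region (chr6:47594764-47595984), with 1430 bp in K27M cells and 1221 bp in H3WT cells, and none at a shared peak with H3K27me3.

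Germ cell and meiosis genes, which PRC1 with E2f6 and Mga is known to silence in mouse embryonic stem cells, had 4 of 48 at the regions (8.33%, 2.32% to 20%) and 1 at a shared peak with H3K27me3. Stag3 (chr5:138279398-138281435) had 2074 bp in K27M cells and 2038 bp in H3WT cells. Smc1b, another meiotic cohesin gene, shared its region with Ribc2, 1401 bp wide in K27M cells and 1178 bp in H3WT cells. Zcwpw1, which encodes a histone methylation reader of meiotic recombination sites, had 1902 bp in K27M cells and 1943 bp in H3WT cells, and Tdrkh, a piRNA pathway gene, 1600 bp in K27M cells and 1630 bp in H3WT cells. The Smc1b peak was the one of these 4 that differed most in width between genotypes. With few genes per list, intervals are wide, and those of the PRC1 and germ cell lists lay above 1.67% while that of the PRC2 list did not.

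Developmental transcription factor genes were more often at shared Ring1b peaks with H3K27me3 than at the regions without it. Of 129 homeobox and paired-box genes, 94 (72.9%) had a shared peak with H3K27me3 and 1 (0.775%), Lhx2, a region without it, 2002 bp wide in K27M cells and 1844 bp in H3WT cells, 402 bp from H3K27me3 and beside a second Ring1b peak that touched it. Of 176 other developmental transcription factor genes, 62 (35.2%) had a shared peak with H3K27me3 and 10 (5.68%, 2.76% to 10.2%) a region without it. These 10 were Foxc1, Gli3, Hes1, Klf9, Nfib, Prdm11, Prdm2, Sox13, Sox21 and Zic2. Zic2, a cerebellar and forebrain zinc finger factor gene, had 2707 bp in K27M cells and 2083 bp in H3WT cells. Gli3, of Hedgehog signalling, had 1232 bp in K27M cells and 1922 bp in H3WT cells. Of 39 neural stem and glial progenitor genes, Hes1, Nes and Nfib (7.69%) were at a region, and as many at a shared peak with H3K27me3. Hes1, a Notch target, had 1816 bp in K27M cells and 1007 bp in H3WT cells, and Nes, the gene of the intermediate filament nestin, 1372 bp in K27M cells and 1011 bp in H3WT cells.

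Growth response and cell cycle restraint genes followed. Of 44 genes in the list of immediate-early, stress and growth transcription factors, 5 (11.4%, 3.79% to 24.6%) were at a region and 4 at a shared peak with H3K27me3. The 5 were Ier2, Egr1, Srf, Dusp5 and Zfp36l2, of which Dusp5 and Zfp36l2 do not encode transcription factors. Srf, the serum response factor gene, had 1975 bp in K27M cells and 1800 bp in H3WT cells. Of 21 cell cycle inhibitor and p53 pathway genes, Rb1 and Rbl1 (9.52%, 1.17% to 30.4%), of the retinoblastoma family, were at a region, with 1069 bp in K27M cells and 1644 bp in H3WT cells at Rb1 and 1508 bp in K27M cells and 1267 bp in H3WT cells at Rbl1. Of 115 cell cycle and replication genes, 2 (1.74%) were, E2f6 and Cdt1.

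The list of ubiquitin ligase and proteasome genes gave the largest number, 17 of 401 (4.24%, 2.49% to 6.7%), with 2 at shared peaks with H3K27me3. None of the 17 is a proteasome subunit gene. They include the deubiquitinase genes Usp10, Usp36 and Usp49 and the conjugating enzyme genes Ube2q1 and Ube2r2. Usp6nl, also among them, does not encode a ubiquitin enzyme. Klhl22, an adaptor of Cullin-3 ligases, had 2111 bp in K27M cells and 2172 bp in H3WT cells. The deubiquitinase gene Usp36 had 2125 bp in K27M cells and 2095 bp in H3WT cells, and Trim44 1941 bp in K27M cells and 2041 bp in H3WT cells. Of 93 other chromatin regulators, 4 (4.3%, 1.18% to 10.6%) were at a region, the histone deacetylase gene Hdac2, the demethylase gene Kdm3a, the SWI/SNF gene Smarcc1 and the acetyl-lysine reader gene Brd2. C2H2 zinc finger genes had 12 of 457 (2.63%, 1.36% to 4.54%), a list matched by symbol that also holds Zfp36l2, a CCCH-type protein gene.

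Signalling and housekeeping lists lay near the background. The Wnt, Bmp, Notch, Hedgehog, Fgf and TGF-beta list had 3 of 112 (2.68%), the Wnt receptor Fzd2, the Wnt target and inhibitor Axin2, and Bmp2k, a kinase named for Bmp2. The PDGF, receptor tyrosine kinase and MAPK list had Kit and Pik3ip1 of 89 (2.25%). Small GTPases and regulators had 5 of 207 (2.42%), Rab8a, Arhgdia, Arhgef2, Ran and Ralgds. Ion channels and neurotransmitter receptors had 5 of 235 (2.13%), including the calcium channel genes Cacna1c and Cacnb2, against 16 (6.81%) at shared peaks with H3K27me3. Solute carriers had 5 of 376 (1.33%), Slc35c1, Slc16a7, Slc6a9, Slc24a3 and Slc25a30. The translation list had 2 of 102 (1.96%), the translation factor gene Eif5a2 and the methyltransferase gene Eef1akmt3. Rps10 was the 1 of 80 ribosomal protein genes (1.25%), Mrpl38 and Ndufa13 the 2 of 203 mitochondrial protein genes (0.985%) and the helicase gene Ddx25 the 1 of 157 splicing and RNA processing genes (0.637%). No histone gene of 78 (upper bound of the interval 4.62%) and no olfactory or vomeronasal receptor gene of 1458 (upper bound 0.253%) was at a region. Intervals of the ubiquitin, germ cell, immediate-early, PRC1 and developmental factor lists did not reach down to 1.67%. That share is over all autosomal protein-coding genes, including the 1458 receptor genes with none at a region. Among genes with a RefSeq promoter start, 88.9% of those at regions and 47.2% of all were CpG-rich. No list was compared with CpG-rich genes alone, so the part of promoter type in these shares was not tested. The lists were not tested as sets, they share members, and their intervals were not adjusted for the number of lists.

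**Figure D5:**
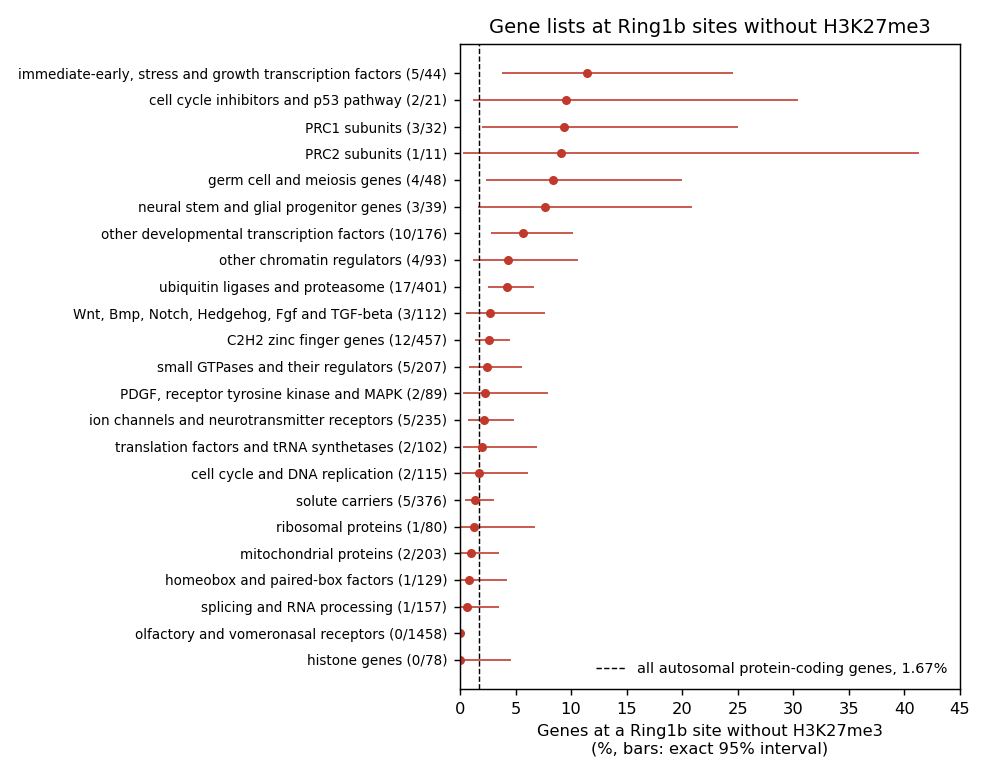
Percentage of genes of each list at a shared Ring1b region without H3K27me3 (x axis, with exact 95% intervals), by list with the number at a region of the number in the list (y axis). The dashed line marks 1.67%, the share of all autosomal protein-coding genes, not matched for CpG-rich promoters. The immediate-early list had the highest value at 11.4%.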

How the data were processed

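ChIP-seq had been carried out for H3K27me3, Ring1b and Suz12 in K27M and H3WT cells. Bowtie 1.1.2 and mm10 are named in the submitters' processing notes. The caller, its threshold, its control and read depth are not given in the sources used here, so counted peaks may reflect depth. The deposited files hold chromosome, start and end of each peak, 1 list per library (12 lists, 100123 peaks after touching peaks were merged), where the score is 0 throughout and was not used. The 2 IgG samples were not analysed here.

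Overlaps needed at least 1 bp. Gene starts came from a RefSeq promoter table of GRCm38.p6 that covers 16456 of 20661 autosomal protein-coding genes (288 of the 346 at regions), and the 2 gene ends stood in for the others. Promoters of chromosome 18 were not used here. A gene was at a region if its start lay within 1 kb of it. Numbers of regions, medians and shares were computed with Python 3.11.15, pandas 2.3.3 and SciPy 1.17.1, and the overlap code was tested on simulated intervals. No test was made, since Ring1b and Suz12 had 1 library per genotype. The regions and lists were chosen with earlier results of these data known.

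Named genes were the 12 widest regions at a gene, those with a Suz12 peak, up to 3 of each of 23 lists, the 5 farthest from genes, the 3 highest and 3 lowest width ratios and the 3 nearest the limits of the rule. Further members of short lists, noncoding genes and promoters shown were picked after their values were seen. One gene under the naming rule is not reported here. Alternatives were the overlap, windows, H3K27me3 lists left out, peak width, the X chromosome and the gene ends.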

Additional observations from a re-analysis of the deposited data

How the results depend on the processing

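The number of regions was 385 with at least 50% of the H3WT peak overlapped, 388 with X, 381 with K27M peaks as the regions, 418 with only H3K27me3 peaks of at least 3 kb, 320 with H3K27me3 kept out to 5 kb and 35 when both Ring1b peaks had to reach 2 kb. It ran between 385 and 443 with 1 or 2 H3K27me3 lists left out. The Suz12 share in K27M cells was 0.26%, 0% with H3K27me3 kept out to 5 kb, 1.04% within 5 kb and between 0.258% and 1.13% with libraries left out. The share at a protein-coding start was 84.2%, 88.83% with a window of 5 kb, 88.83% with all annotated genes, 76.1% with both ends of every gene and 70.91% with genes of the promoter table alone, where the last 2 were chosen after seeing the data. The gene ends miss inner starts, and the promoter table lacks some genes. The median distance to H3K27me3 ran between 37.99 and 132.7 kb with libraries left out, 93.12 kb without replicate 2 of H3WT. Another 51 recomputed summary values and 23 list counts stayed within 1.5 times or within their interval. No paired analysis was possible because the results come from no test. Unknown depth limits every absence of a peak.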

Other observations

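Another 155 autosomal Ring1b peaks of H3WT cells had neither H3K27me3 nor a K27M Ring1b peak. Sharing with K27M cells was thus found for 71.3% (385 of 540, 67.3% to 75.1%) of H3WT Ring1b peaks without H3K27me3 and for 81% (961 of 1187, 78.6% to 83.2%) of those with it. Among peaks without H3K27me3, the shared ones had a median H3WT width of 1493 bp and the 155 unshared ones 1179 bp (quartiles 1050 and 1369). None of the 155 had a Suz12 peak, which allows up to 1.94% by the limit of 3 counts (exact upper bound 2.35%). A protein-coding start lay within 1 kb of 84.2% of the shared peaks without H3K27me3 (324 of 385) and of 82.6% of the unshared ones (128 of 155, 75.7% to 88.2%). The part of depth in this was not tested.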
